A study of Mus musculus with 8 samples.

Results

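Glycolysis, lactate export and the transcriptional response to low oxygen were followed through 38 genes in RNA-seq of 4 related mouse mammary tumour cell lines. The genes were taken as a list of symbols by their known function. No threshold on a measured value entered the list, though it was drawn up with earlier results of these data known. Each was matched to its row in the table of counts by Entrez GeneID. All 38 had a row among the 27179 genes of the table, and 35 passed the filter on low counts that left 13930 genes for testing. The remaining 3 were close to absent in every library. Slc2a3, a high-affinity glucose transporter, had 7, 8, 11 and 12 counts in the 4 libraries of 4T1.2 and 4T1 and 0, 0, 0 and 1 in those of 66cl4 and 67NR. Pdk4, a pyruvate dehydrogenase kinase of fasting tissue, had 2 counts in 1 library of 66cl4 and 0 in the others. Epas1, which encodes HIF-2α, had at most 2 counts anywhere.

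The lines 4T1.2, 4T1, 66cl4 and 67NR are related lines of mammary tumour cells, which the study calls isogenic. Of these, 66cl4 and 67NR are the lines of lower metastatic potential, and 4T1.2, derived from BALB/c, forms bone metastases from the mammary gland. All were grown in αMEM with 5% FCS, with no treatment in the labels, and each is represented by 2 biological replicates whose separate origin is not described further, so p-values measure the spread between such replicates only. The labels spell 66cl4 with the digit 1 in place of the letter l, and the other spelling is used throughout. A line is 1 isolate, so a difference between lines cannot be told apart from a difference between isolates. Totals ran from 37159840 to 66269681 counts per library. Of 8 epithelial markers, 5 exceeded 1 CPM (the count scaled to a common library size) in 4T1 and 4 in 4T1.2, but 2 in 66cl4 and 1 in 67NR. Epcam was at 0 in both 66cl4 libraries and at most 0.0272 CPM in 67NR. Summed leukocyte markers reached at most 25.6 CPM, most of it Lyz2. Lyz2 was at 17.6 to 22.6 CPM in 66cl4 and 67NR and at most 0.0704 CPM in 4T1.2 and 4T1. Cd68 ran the other way, at 3.84 to 5.11 CPM in 4T1.2 and 4T1 against 1.60 to 2.98 CPM in 66cl4 and 67NR. Ptprc stayed at or under 0.0352 CPM, Cd3e, Adgre1 and Tyrobp were at 0, and the summed endothelial and adipocyte markers stayed at or under 3.70 and 0.388 CPM. In bulk RNA, fewer cells with a transcript and less transcript per cell cannot be told apart.

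Glycolysis splits glucose into pyruvate, and cells that divide quickly or lack oxygen reduce much of that pyruvate to lactate and export it with a proton. The transcription factor HIF-1 raises many of the genes involved. Its alpha subunit is marked for destruction by the prolyl hydroxylases Egln1 and Egln3 while oxygen is present, so its activity is set largely at the level of the protein and not of its mRNA. HIF-1 binds DNA at a short core, RCGTG, and its well known targets in tumours include the glucose transporter Slc2a1, the carbonic anhydrase Car9, the mitophagy receptor Bnip3 and Ndrg1.

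The core letters were searched in the 250 bases upstream of the RefSeq starts of these genes (GRCm38.p6), as ACGTG or GCGTG on both strands. CACGTG holds ACGTG on each strand and counts as a pair of matches. A start was on hand for 35 of the 38 genes, and 31 of these 35 (88.6%) had at least 1 match in 1 of their windows, where 59.8% of the 10928 tested genes with a window did. By window, the share was 80.4% of 51 against 54.0% of 13910. The list was taken by function and holds known HIF-1 targets, so these shares are a description and were not tested. The 35 genes include Pdk4, which did not pass the filter on low counts. A match describes letters and not binding. In the stretches printed, the core is in capitals in either orientation (ACGTG or GCGTG, or CACGT or CACGC from the other strand). The 100 bases before the start are given for some genes of the list, each 5′ to 3′ along the gene's strand. They are Car9 (chr4:43506926-43507025, plus strand), Bnip3 (chr7:138909507-138909606, minus), Ldha (chr7:46845704-46845803, plus), Slc2a1 (chr4:119108645-119108744, plus) and Egln1 (chr8:124949255-124949354, minus), with Eno2 (chr6:124769674-124769773, minus) as a gene with no match.
Car9: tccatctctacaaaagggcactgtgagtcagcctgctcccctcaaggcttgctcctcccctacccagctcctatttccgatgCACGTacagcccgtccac
Bnip3: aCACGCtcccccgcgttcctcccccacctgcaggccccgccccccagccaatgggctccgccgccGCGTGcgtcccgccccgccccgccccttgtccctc
Ldha: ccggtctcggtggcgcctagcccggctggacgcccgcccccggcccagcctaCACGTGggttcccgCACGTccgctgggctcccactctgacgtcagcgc
Slc2a1: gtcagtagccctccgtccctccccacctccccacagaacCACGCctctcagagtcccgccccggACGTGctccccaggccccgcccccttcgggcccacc
Egln1: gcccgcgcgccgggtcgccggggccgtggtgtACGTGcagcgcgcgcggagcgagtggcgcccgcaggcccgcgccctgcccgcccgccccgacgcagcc
Eno2: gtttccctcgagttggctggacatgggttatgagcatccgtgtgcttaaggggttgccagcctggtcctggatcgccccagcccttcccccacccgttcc

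In Car9, a single core lies 13 bases before the start, and Ldha holds 3 matches in the stretch printed. Car12 and Tpi1, like Eno2, have no match in their windows, and neither does Gpi1. Car12, Ldhb, Aldoc and Pfkm differed more between the lines than Slc2a1 or Egln1, and their stretches are not printed. Genes with and without a match are both found among those that differed between the lines.

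The 38 genes together took between 0.845% and 1.90% of a library's counts. The share was lowest in 66cl4, at 0.845% and 0.876%, and highest in 4T1, at 1.46% and 1.90%. It was 1.05% and 1.10% in 4T1.2 and 1.2% and 1.23% in 67NR, so no line overlapped another. Both replicates of 4T1 stood above all other libraries, and they also lay farthest apart. Across the 35 tested genes the second 4T1 replicate exceeded the first by a median log2 difference of 0.34, with 27 genes higher and 20 higher by over 1.2-fold, while the median over all tested genes was 0. In the other lines this median lay between 0.01 and 0.07. Calls that were lost without one of the 4T1 libraries are given beside the results. Shares over all genes are from the fit of all 8 libraries, and are no background for a fit with 1 library left out.

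**Figure D1:**
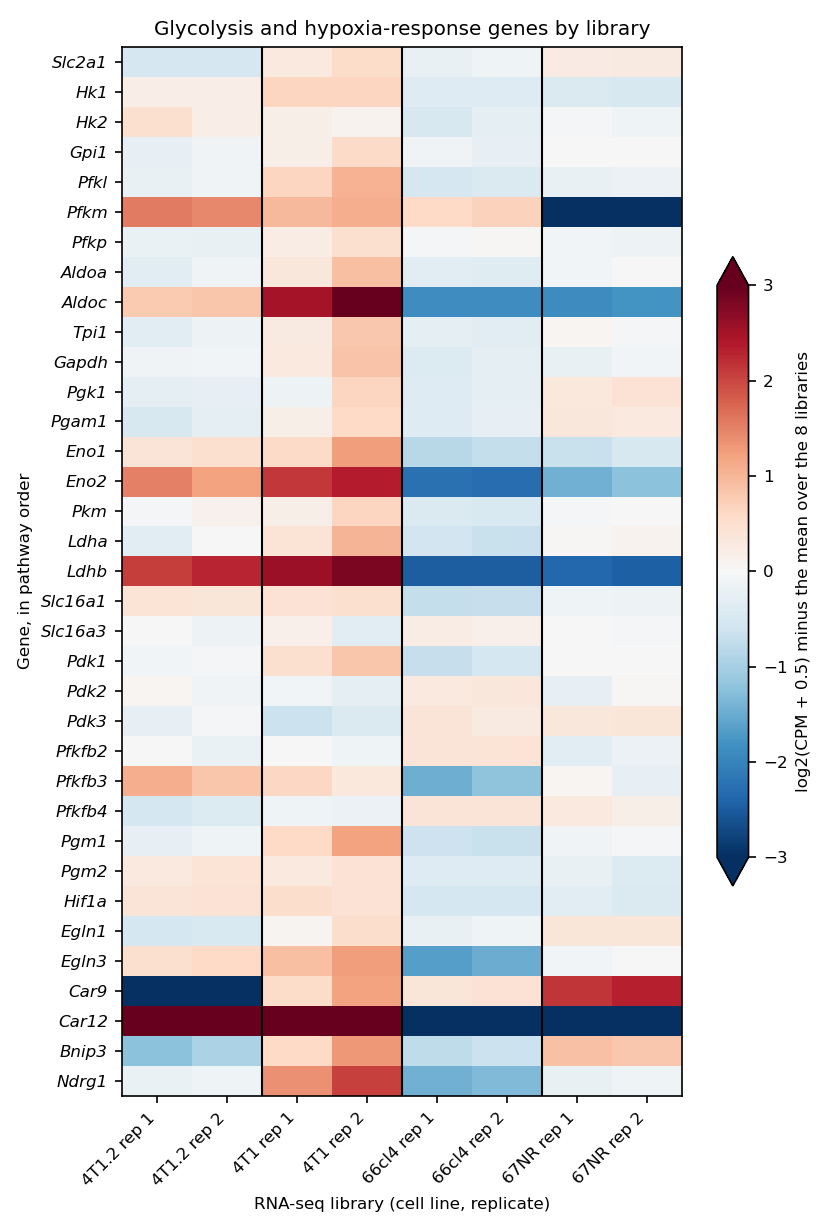
Heat map of the 35 tested genes (rows, in pathway order) in the 8 libraries (columns, 2 replicates per line), coloured by log2(CPM + 0.5) minus the gene's mean over the 8 libraries, with colours saturating at 3 in either direction. Most rows are warmest in 4T1, above all in its second replicate, and coolest in 66cl4, while Car9 is lowest in 4T1.2, Pfkm in 67NR, and Car12, Ldhb, Aldoc and Eno2 are low in both 66cl4 and 67NR.

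Per unit of transcript length, as CPM divided by gene length in kilobases (RPKM), the most abundant transcripts were those of Ldha, Pkm, Tpi1 and Aldoa. Ldha, which reduces pyruvate to lactate, ranged over the libraries from 755 to 2433 RPKM. Pkm, pyruvate kinase, ranged from 910.3 to 1933 RPKM, and both Tpi1 and Aldoa stayed above 549 RPKM. Gapdh, between them in the pathway, reached only 79.0 to 191 RPKM and Pgk1 48.8 to 101 RPKM. These last values are uncertain as levels, because 22.6% of the 75-base stretches of the Gapdh transcripts and 52.8% of those of Pgk1 also occur in transcripts of other annotated genes, a figure of sequence and not of reads. The same holds for Pgam1 (34.9%), Bnip3 (34.4%), Eno1 (23.0%), Pkm (17.8%), Pfkfb2 (16.2%), Ldhb (12.6%), Pgm1 (11.4%), Gpi1 (10.8%) and Pfkm (8.13%). For every other gene of the list the share was under 5%.

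In the bone-seeking line 4T1.2, most of these genes were lower than in 4T1. At an adjusted p under 0.05, 23 of the 35 were called, against 19.3% of all tested genes. Of these, 21 were lower and 2 were higher, where 9.91% and 9.35% of all genes were called in those directions. Their median log2 fold change was -0.57, against 0 over all genes tested, and 30 of the 35 fitted values lay below 0. The lower genes covered uptake (Slc2a1) and the first step of the pathway (Hk1). Much of its middle was among them (Gpi1, Pfkl, Pfkp, Aldoa, Aldoc, Tpi1, Gapdh, Pgam1, Eno2). So were the lactate dehydrogenases Ldha and Ldhb, Pdk1, Pgm1, the prolyl hydroxylases Egln1 and Egln3 and the hypoxia targets Car9, Car12, Bnip3 and Ndrg1. The 2 that were higher were Pfkm and Pdk3. Over 2-fold, 6 were lower (Car9, Aldoc, Bnip3, Ndrg1, Pgm1 and Pfkl) and none was higher, where 4.50% and 1.94% of all genes were, or 6.44% in either direction. Of the 21 lower genes, 14 stayed below the threshold whichever library was left out. Without the first 4T1.2 replicate, the calls of Gpi1, Aldoa, Tpi1, Gapdh, Ldha, Ldhb, Egln3 and Pfkm were lost. Their log2 fold changes were then -0.50, -0.75, -0.72, -0.68, -0.76, -0.43, -0.48 and 0.42, in that order. Without the second 4T1.2 replicate, Gapdh (0.07) and Pdk3 (0.195) were not called, and Pdk3 was also lost without the first 4T1 replicate (0.0853) or either 67NR replicate (0.0563 and 0.0562). Without the second 4T1 replicate, the call of Ldhb was lost (log2 fold change of -0.40). Other log2 fold changes then shrank to -0.36 for Gpi1, -0.55 for Aldoa, -0.52 for Tpi1, -0.38 for Gapdh and -0.57 for Ldha. Without the first 4T1 replicate, Pgk1 (-0.93), Eno1 (-0.82) and Pkm (-0.60) were called lower as well. Epithelial markers were lower in 4T1.2 as well: their summed level was 1473 and 1732 CPM against 2184 and 2887 CPM in 4T1, and Epcam was at 13.7 and 14.2 CPM against 38.9 and 46.6 CPM. Their part in the difference was not tested.

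**Figure D2:**
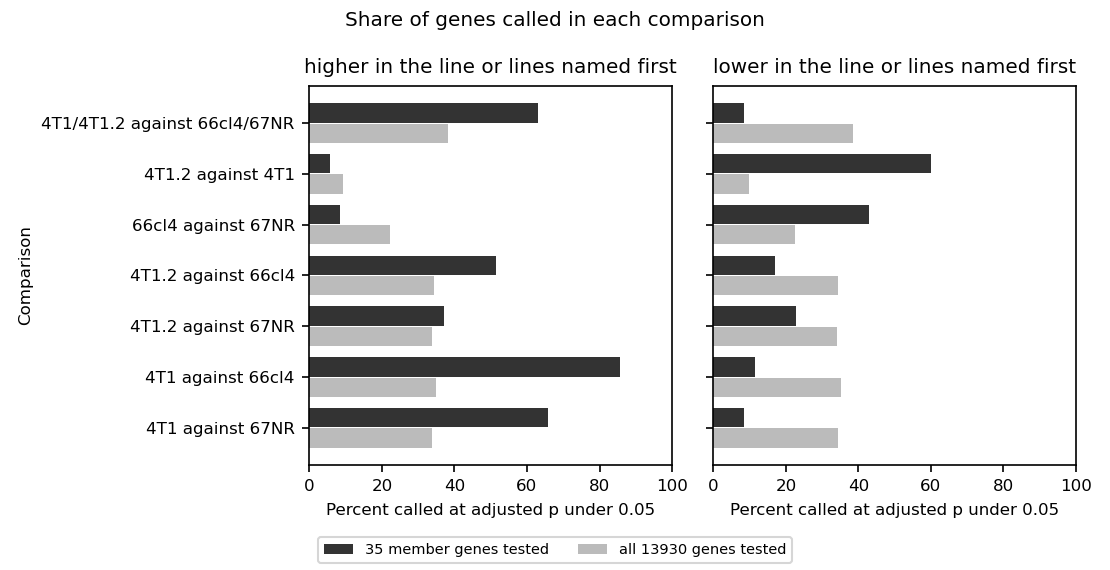
Percent of genes called at an adjusted p under 0.05 (x axis) in each of the 7 comparisons (y axis), higher (left) and lower (right) in the line or lines named first, for the 35 tested genes of the list (dark bars) and for all 13930 tested genes (light bars). The share of lower genes was 60% in 4T1.2 against 4T1 and 42.9% in 66cl4 against 67NR, above the 9.91% and 22.4% of all genes, and the share of higher genes was 85.7% in 4T1 against 66cl4, above 34.9%.

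Between the lines of lower metastatic potential, 66cl4 was the lower one. Of the 35 genes, 18 were called, against 44.6% of all tested genes. In 66cl4, 15 of them lay below 67NR and 3 above, where 22.4% and 22.2% of all genes were called in those directions. The median log2 fold change was -0.29, against 0 over all genes. The lower genes were Slc2a1, Pgk1, Pgam1, Eno2, Pkm, Ldha, Slc16a1, Pdk1, Pfkfb3, Pgm1, Egln1, Egln3, Car9, Bnip3 and Ndrg1, and the higher ones were Pfkm, Pdk2 and Pfkfb2. No step of upper glycolysis from Gpi1 to Tpi1 was called lower here, and Pfkm was the only one called, although Pfkl, Aldoa and Tpi1 were called lower when either 4T1 replicate was left out of the fit. Over 2-fold, 6 were lower (Eno2, Car9, Bnip3, Egln3, Pfkfb3 and Ndrg1) and 1 was higher, where 6.81% and 7.90% of all genes were, or 14.7% in either direction. Of the 15 lower genes, 10 stayed below the threshold in every fit that left out 1 library. The calls of Pgk1, Pkm, Ldha and Pgm1 were lost on leaving out any 1 of the 4 libraries compared, with adjusted p-values by edgeR of up to 0.106, 0.182, 0.0783 and 0.102, and their log2 fold changes with all libraries were -0.71, -0.43, -0.70 and -0.56. Egln1 was lost without the first 66cl4 replicate (0.0605) or the second 67NR replicate (0.0537), and Pdk2 in 5 of the 8 fits, reaching 0.217 without the first 67NR replicate. Fewer of the 35 were called without any 1 of the 4 libraries of 66cl4 and 67NR than with all libraries. Summed epithelial markers were higher in 66cl4, at 717 and 719 CPM, than in 67NR, at 464 and 529 CPM, with Krt18 at 115 and 113 CPM against 0.817 and 1.13 CPM.

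**Figure D3:**
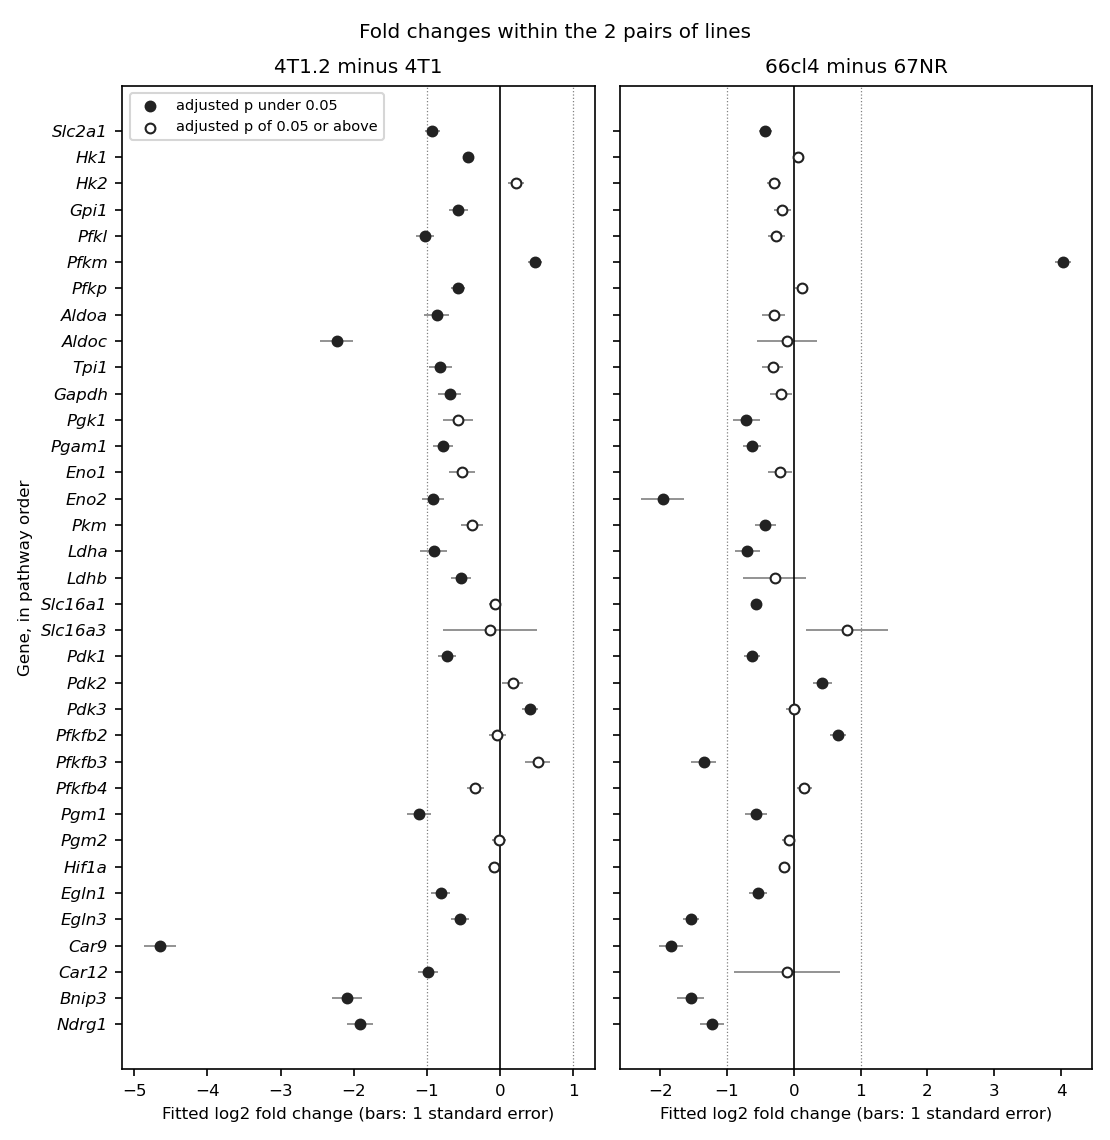
Fitted log2 fold change of each of the 35 tested genes (y axis, in pathway order) for 4T1.2 minus 4T1 (left) and 66cl4 minus 67NR (right), with bars of 1 standard error, filled points at an adjusted p under 0.05 and dotted lines at a log2 fold change of 1 in either direction. Filled points lie mostly left of 0 in both panels, from -4.65 for Car9 on the left, while Pfkm and Pdk3 on the left and Pfkm, Pdk2 and Pfkfb2 on the right are filled points above 0, up to 4.02 for Pfkm.

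Between the pairs, with 4T1 and 4T1.2 as one side and 66cl4 and 67NR as the other, 25 of the 35 genes were called, 22 as higher and 3 as lower. Calls are common in this comparison, with 76.7% of all genes called, 38.1% higher and 38.6% lower. Over 2-fold, 9 were higher and 1 was lower, where 15.9% and 16.0% of all genes were (31.9% in all). The 9 were Pfkm, Aldoc, Eno1, Eno2, Ldhb, Pfkfb3, Egln3, Car12 and Ndrg1, and the lower one was Car9. The median log2 fold change was 0.50, against -0.01 over all genes. This comparison mixes unlike lines: 4T1 exceeded 66cl4 in 30 of the 35 genes and lay below it in 4, with 34.9% and 35.1% as the shares over all genes (70.0% in all), and only Slc16a3 was not called. Over 2-fold, 16 were higher there and none was lower, where 16.9% and 17.5% of all genes were, or 34.4% in either direction. Against 67NR, 4T1 was higher in 23 and lower in 3 (33.8% and 34.3% of all genes, 68.2% in all), and 12 passed 2-fold where 32.1% of all genes did. For 4T1.2 the counts were 18 and 6 against 66cl4 (34.3% and 34.5%, 68.9% in all), with 10 over 2-fold where 33.2% of all genes were, and 13 and 8 against 67NR (33.7% and 34.1%, 67.9% in all), with 9 over 2-fold where 32.1% of all genes were and a median log2 fold change of 0.04. These comparisons share libraries and are not independent of each other. Mesenchymal markers differed between the pairs as well: Zeb1 was at 0.264 to 0.458 CPM in 4T1.2 and 4T1 and 59.9 to 65.2 CPM in 66cl4 and 67NR, Cdh2 at most 0.0215 CPM against at least 81.0 CPM, and Pdgfrb at 1.22 to 3.40 CPM against 162 to 357 CPM. Their summed level, which Vim dominates, ranged from 5393 to 7445 CPM in the first pair and from 3350 to 5745 CPM in the second. Their part in the differences between the pairs was not tested. Tpi1, with a pooled log2 fold change of 0.30, lost its call when any 1 of 6 libraries was left out and fell to 0.15 without the second 4T1 replicate (adjusted p of 0.1 by edgeR), where Aldoa fell to 0.26. Without the same library, 4T1 was no longer called against 66cl4 for Pgk1 (0.103) and Car9 (0.194), nor against 67NR for Gpi1 (0.175), Tpi1 (0.101), Pkm (0.271) and Ldha (0.068). Among these 4, Gpi1, Tpi1 and Pkm were also lost without either 67NR replicate, and Ldha without the first (0.065). Pfkfb3 in 4T1 against 67NR was lost without the first 4T1 replicate (0.0685) or the second 67NR replicate (0.122), and Pfkfb4 without the first 67NR replicate (0.0768). In 4T1 against 66cl4, leaving out the first 66cl4 replicate also lost Pfkp (0.0531), Pgk1 (0.086) and Egln1 (0.0514), and leaving out the second lost Pgk1 (0.0546). In 4T1.2 against 66cl4, the calls of Slc2a1, Pkm, Ldha, Pdk2 and Pgm1 were each lost on leaving out 1 or more single libraries, with adjusted p-values of up to 0.0702, 0.101, 0.25, 0.245 and 0.126, and so was Pgk1 in 4T1.2 against 67NR (up to 0.0963). In 4T1.2 against 66cl4, Pfkl, Pfkp, Gapdh, Egln1 and Bnip3 gained calls when either 4T1 replicate was left out. So did Tpi1 in 4T1.2 against 67NR. With all libraries their log2 fold changes were 0.30, -0.22, 0.25, -0.32, -0.40 and -0.27, in that order. Comparisons with 4T1 also gained calls without a 4T1 library. In 4T1 against 67NR, Pgk1 was higher without the first replicate (0.29, adjusted p of 0.0239 by edgeR) and lower without the second (-0.53, 0.000901). Slc2a1, Pgam1 and Bnip3 became higher there without the first, by 0.29, 0.28 and 0.47, and Egln1 lower without the second (-0.29). In the pooled comparison, Pgk1 was higher without the first 4T1 replicate (0.18, 0.0263) and lower without the second (-0.23, 0.00845). Gpi1, Pfkp, Pdk2 and Slc16a3 were called without the first, and Slc2a1 (-0.15, 0.0405), Egln1 (-0.30, 0.00127) and Bnip3 (-0.32, 0.00336) were called lower without the second.

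Of the genes of glucose entry, the Slc2a1 transcript differed within each pair. Slc2a1, the glucose transporter GLUT1, had 85.2 and 84.1 CPM in 4T1.2, 146 and 176 CPM in 4T1, 104 and 109.9 CPM in 66cl4 and 143 and 144 CPM in 67NR. The libraries of 4T1.2 and then 66cl4 were lowest, and none of them overlapped those of the sister line. The log2 fold change was -0.93 (SE 0.10, edgeR adjusted p of 0.000235) for 4T1.2 against 4T1 and -0.43 (SE 0.10, 0.00634) for 66cl4 against 67NR, while the pooled difference was not called (-0.09, SE 0.07, 0.289). Slc2a3 made up at most 0.109% of the summed RPKM of both transporters, and its 38 counts in 4T1.2 and 4T1 against 1 in the other lines give a ratio of 32.4 after division by library size, with a 95% counting interval from 5.48 to 1314.

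Of the hexokinases, which trap glucose as its phosphate, Hk1 had 225 and 225 CPM in 4T1.2, 305 and 304 CPM in 4T1, 149 and 148 CPM in 66cl4 and 144 and 140.0 CPM in 67NR. The libraries of 4T1.2 and 4T1 all lay above those of 66cl4 and 67NR, and Hk1 was higher in the pooled comparison by a log2 fold change of 0.85 (SE 0.05, edgeR adjusted p of 2.82e-07). Hk2, the inducible form and a known HIF-1 target, was also higher in the pooled comparison (0.49, SE 0.08, 0.000249), and it was not called within either pair, with fitted values of 0.22 (SE 0.11, 0.206) for 4T1.2 against 4T1 and -0.29 (SE 0.11, 0.0532) for 66cl4 against 67NR. The latter was called when any 1 library of 4T1.2 or 4T1 was left out (0.0263 to 0.0364). By RPKM, Hk2 made up 29.4% of Hk1 and Hk2 for 4T1.2 (mean of 2 libraries), 20.9% for 4T1, 27.3% for 66cl4 and 32.6% for 67NR.

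In upper glycolysis the lines differed in their phosphofructokinase paralogs. Pfkm, the muscle-type subunit of phosphofructokinase, had 97.4 and 90.4 CPM in 4T1.2, 65.0 and 70.3 CPM in 4T1, 49.7 and 53.5 CPM in 66cl4, but 2.94 and 3.35 CPM in 67NR. The 67NR libraries stood far below the other 6, and 66cl4 was higher than 67NR by a log2 fold change of 4.02 (SE 0.12, edgeR adjusted p of 3.31e-08). Pfkl, the liver type, ran the other way within the first pair, at 389 and 420.0 CPM in 4T1.2 and 712 and 937 CPM in 4T1. In 66cl4 it was at 322 and 335 CPM and in 67NR at 388 and 400.5 CPM, so the 4T1 libraries lay above and the 66cl4 libraries below all others. Of the summed RPKM of Pfkl, Pfkm and Pfkp, Pfkm made up 16.0% for 4T1.2, 6.93% for 4T1, 10.1% for 66cl4 and 0.628% for 67NR (means of 2 libraries). Pfkp, the platelet type, ranged only from 210.4 to 343 CPM over all libraries.

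Aldoc, the brain-type aldolase and a minor form here, had 5.40 and 5.69 CPM in 4T1.2 and 19.1 and 33.2 CPM in 4T1, against 0.436 to 0.502 CPM in the 4 libraries of 66cl4 and 67NR. 4T1.2 lay below 4T1 by a log2 fold change of -2.23 (SE 0.23, edgeR adjusted p of 0.000182), and it never exceeded 1.46% of the summed RPKM of Aldoa and Aldoc. Aldoa, the main aldolase, ranged from 1002 to 2406 CPM, Gpi1, glucose-6-phosphate isomerase, from 423 to 749 CPM, and Tpi1, triosephosphate isomerase, from 998 to 2223 CPM. Each of these had its maximum in the second 4T1 replicate.

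In lower glycolysis the enolases set the pairs apart. Eno1, the common enolase, had 539 and 567 CPM in 4T1.2, 612 and 974 CPM in 4T1, 229 and 249 CPM in 66cl4 and 257 and 293 CPM in 67NR. All libraries of the first pair lay above all of the second, with a log2 fold change of 1.37 (SE 0.13, edgeR adjusted p of 6.19e-06). Eno2, the neuronal enolase, had 9.46 and 7.68 CPM in 4T1.2, 14.7 and 17.6 CPM in 4T1, 0.243 and 0.223 CPM in 66cl4 and 0.790 and 1.00 CPM in 67NR. It had 11 and 10 counts in the 66cl4 libraries, and it was lower there than in 67NR by a log2 fold change of -1.96 (SE 0.32, 0.000845). Eno1 accounted for at least 98.4% of the summed RPKM of Eno1 and Eno2 in every library. A further enolase outside the list, the muscle form Eno3, named after its values were seen, was also abundant, with means of 391 CPM in 4T1.2, 462 CPM in 4T1, 295 CPM in 66cl4 and 243 CPM in 67NR. Gapdh (97.3 to 235 CPM), Pgk1 (87.9 to 182 CPM), Pgam1 (229 to 479 CPM) and Pkm (2366 to 5023 CPM) all had fitted values below 0 in both pairs, of which Gapdh and Pgam1 were called in 4T1.2 against 4T1 and Pgk1, Pgam1 and Pkm in 66cl4 against 67NR. Of these calls, only those of Pgam1 were kept whichever library was left out.

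Ldha and Ldhb form the subunits of lactate dehydrogenase, the first favouring lactate production and the second its oxidation. Ldha had 1852 and 2285 CPM in 4T1.2, 3068 and 4695 CPM in 4T1, 1540.0 and 1457 CPM in 66cl4 and 2372 and 2494 CPM in 67NR. The 4T1.2 libraries lay below those of 4T1 and of 67NR and above those of 66cl4. The difference of 4T1.2 from 67NR was not called (log2 fold change of -0.23, SE 0.19, edgeR adjusted p of 0.287). The log2 fold change was -0.91 (SE 0.19, edgeR adjusted p of 0.00851) for 4T1.2 against 4T1 and 1.37 (SE 0.19, 0.000121) for 4T1 against 66cl4. The former was lost without the first 4T1.2 replicate (0.0776) and was -0.57 without the second 4T1 replicate. Ldhb had 14.3 and 16.6 CPM in 4T1.2 and 20.4 and 24.5 CPM in 4T1 but had 6 to 9 counts in each library of 66cl4 and 67NR. Relative to library size the first pair exceeded the second 126-fold (95% counting interval 87.2 to 190). Ldhb made up 1.11% of the RPKM of both subunits in 4T1.2, 0.880% in 4T1 and at most 0.0137% in any library of the other lines.

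Of the lactate exporters, Slc16a1, the monocarboxylate transporter MCT1, was the abundant one. It had 279.8 and 269 CPM in 4T1.2, 285 and 293 CPM in 4T1, 129 and 129.9 CPM in 66cl4 and 193 and 191 CPM in 67NR. All libraries of 4T1.2 and 4T1 lay above those of 67NR, which lay above those of 66cl4. The difference between 4T1.2 and 4T1 was not called (-0.07, SE 0.08, edgeR adjusted p of 0.574), while 66cl4 was below 67NR (-0.57, SE 0.08, 0.000291). Slc16a3, the hypoxia-regulated MCT4, had only 2 to 15 counts per library and never exceeded 0.38% of the RPKM of both transporters. It was not called in any comparison with all libraries. Its 4T1 libraries had 15 and 2 counts, and without the first of them it was called lower in 4T1 than in 66cl4 (-2.56, adjusted p of 0.0169) and in the pooled comparison (-1.34, 0.032).

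**Figure D4:**
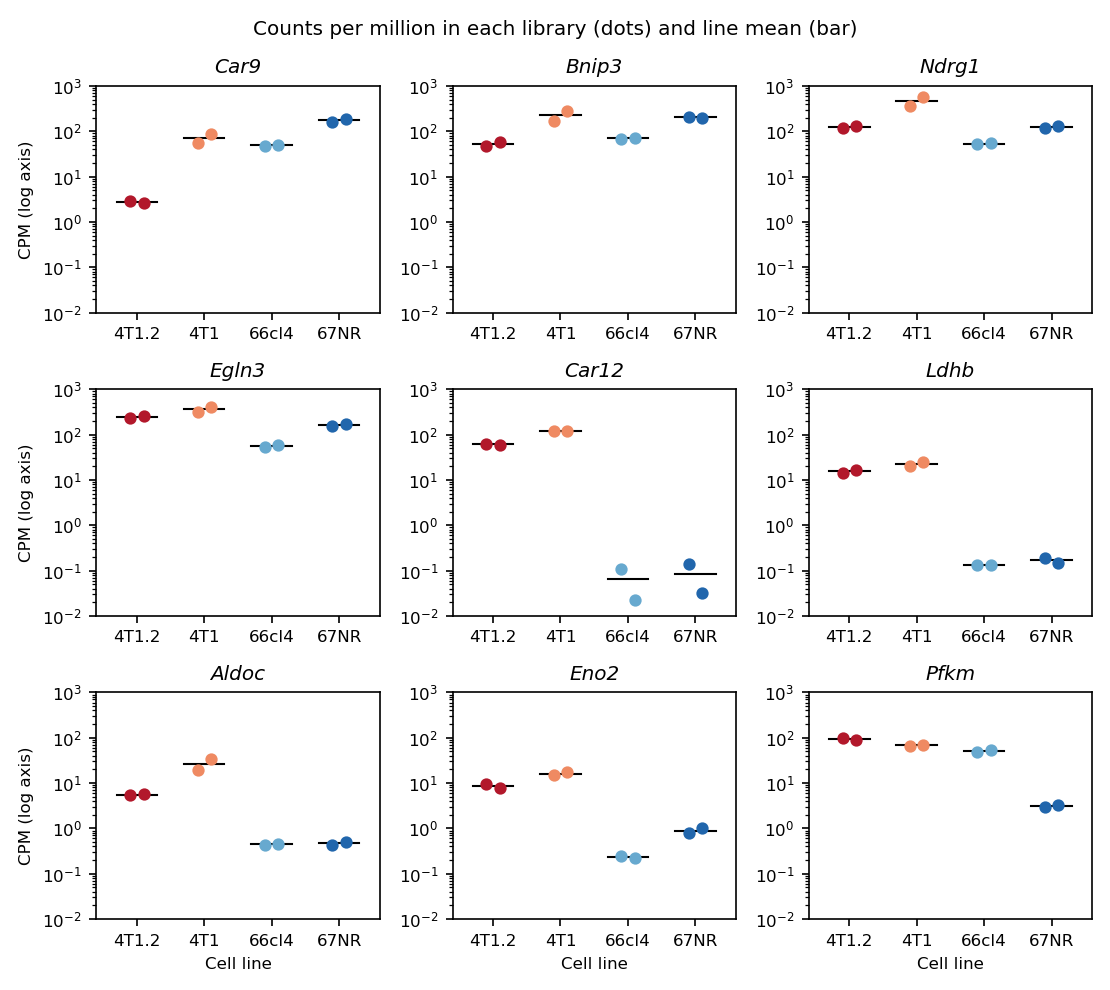
CPM on a log axis in each library (dots) with the mean of the 2 replicates (black bars) for 9 genes of the list in the 4 lines. Car9, Bnip3 and Ndrg1 are lower in 4T1.2 than in 4T1 and in 66cl4 than in 67NR, Car12, Ldhb, Aldoc and Eno2 are at or under 1.00 CPM in 66cl4 and 67NR, and Pfkm is at 2.94 and 3.35 CPM in 67NR.

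The pyruvate dehydrogenase kinases shut pyruvate out of the mitochondrial cycle. Pdk1, the HIF-1 target among them, had 139 and 144 CPM in 4T1.2, 205 and 261 CPM in 4T1, 90.4 and 102 CPM in 66cl4 and 149 and 148 CPM in 67NR. It was lower in the first line of each pair, without overlap, by log2 fold changes of -0.72 (SE 0.12, edgeR adjusted p of 0.00251) and -0.63 (SE 0.12, 0.00209). Pdk3 went the other way across the pairs: it ranged from 27.3 to 42.0 CPM in 4T1 and 4T1.2 and from 52.4 to 56.6 CPM in 66cl4 and 67NR, a log2 fold change of -0.69 (SE 0.08, 2.13e-05). Pdk1 thus made up 71.4% of the summed RPKM of Pdk1 to Pdk4 in 4T1, 54.1% in 4T1.2, 48.4% in 67NR and 36.9% in 66cl4, and Pdk3 most of the rest. Pdk2 stayed between 7.02 and 11.1 CPM.

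The Pfkfb enzymes make and remove fructose-2,6-bisphosphate, which drives phosphofructokinase. Pfkfb3, the form with the strongest kinase activity, had 21.5 and 17.9 CPM in 4T1.2, 15.3 and 12.2 CPM in 4T1, 3.20 and 3.97 CPM in 66cl4 and 10.2 and 8.12 CPM in 67NR. Unlike most of the list it was not lower in 4T1.2 than in 4T1 (0.52, SE 0.17, edgeR adjusted p of 0.0627), and without the first 4T1 replicate it was called higher there (0.69, 0.0237). It was higher in the first pair by a log2 fold change of 1.52 (SE 0.13, 2.42e-06). Pfkfb4 ran opposite, at 7.49 to 10.2 CPM in the first pair and 12.6 to 14.7 CPM in the second (-0.65, SE 0.08, 4.61e-05). Of the summed RPKM of Pfkfb2, Pfkfb3 and Pfkfb4, the share of Pfkfb3 was 46.7% for 4T1.2, 34.5% for 4T1, 8.77% for 66cl4 and 23.5% for 67NR. Pfkfb2 ranged from 15.6 to 25.8 CPM and was highest in 66cl4. Pfkfb1, outside the list and the share and named after its values were seen, had means of 3.77 CPM in 4T1.2, 2.97 CPM in 4T1, 6.15 CPM in 66cl4 and 5.21 CPM in 67NR.

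Pgm1 (Entrez GeneID 72157, chromosome 4) links glucose-6-phosphate to glycogen and to nucleotide sugars. Its symbol and that of Pgm2 (GeneID 66681, chromosome 5) have been exchanged in the mouse, and the identifiers decide here. Pgm1 had 141 and 154 CPM in 4T1.2, 252 and 384 CPM in 4T1, 109 and 106 CPM in 66cl4 and 155 and 162 CPM in 67NR. 4T1.2 lay below 4T1 by a log2 fold change of -1.11 (SE 0.16, edgeR adjusted p of 0.00141), which was -0.78 without the second 4T1 replicate. Pgm2 ranged from 73.2 to 80.5 CPM in the first pair and from 44.9 to 50.6 CPM in the second, with no call within either pair.

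**Figure D5:**
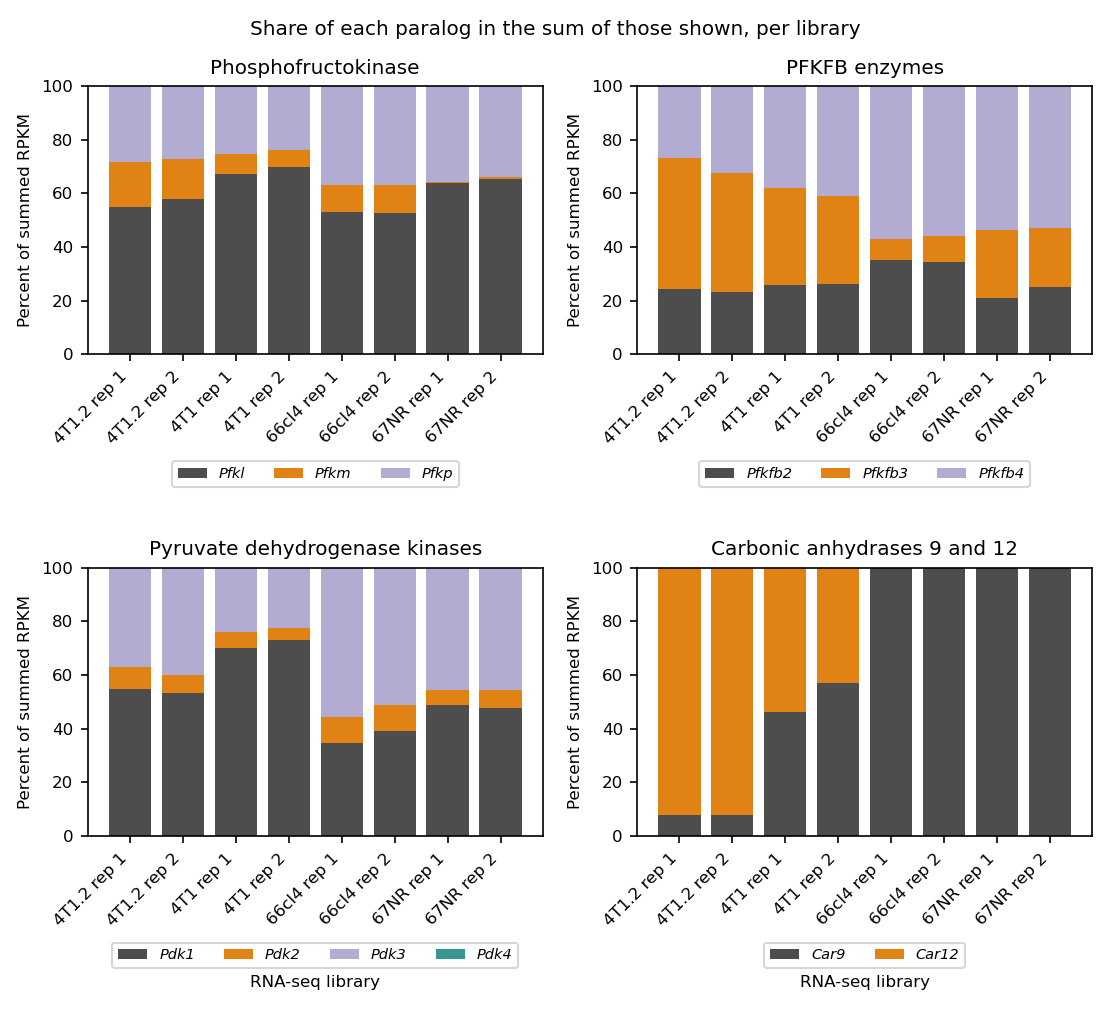
Stacked bars give each paralog's percent of the summed RPKM of the paralogs shown (y axis) in each of the 8 libraries (x axis) for phosphofructokinase, Pfkfb2 to Pfkfb4, the pyruvate dehydrogenase kinases and carbonic anhydrases 9 and 12. Pfkm all but vanishes in 67NR at 0.628%, Pfkfb3 is smallest in 66cl4 at 8.77%, Pdk1 is largest in 4T1 at 71.4%, and Car12 makes up 92.1% in 4T1.2, 48.4% in 4T1 and at most 0.122% in each library of the other lines.

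Of the HIF axis itself, the mRNA of the alpha subunit set the pairs apart. The prolyl hydroxylases Egln1 and Egln3 were lower in the first line of each pair. As given above, the calls of Egln3 in 4T1.2 against 4T1 and of Egln1 in 66cl4 against 67NR were not kept in every fit. Hif1a had 355 and 363 CPM in 4T1.2, 393 and 368 CPM in 4T1, 189 and 189 CPM in 66cl4 and 216 and 202 CPM in 67NR. The first pair lay above the second without overlap, with a log2 fold change of 0.90 (SE 0.06, edgeR adjusted p of 3.79e-07), but neither comparison within a pair was called (-0.08, SE 0.08, 0.546 for 4T1.2 against 4T1, and -0.14, SE 0.08, 0.189 for 66cl4 against 67NR). Egln1, the main oxygen sensor, ranged from 91.8 to 97.1 CPM in 4T1.2, 139.8 to 191 CPM in 4T1, 113 to 122 CPM in 66cl4 and 170.2 to 171 CPM in 67NR, and was below 4T1 in 4T1.2 by a log2 fold change of -0.81 (SE 0.13, 0.00255). Egln3, itself induced by HIF, had 235 and 257 CPM in 4T1.2, 317 and 401 CPM in 4T1, 53.2 and 59.4 CPM in 66cl4 and 158 and 168 CPM in 67NR. Egln3 in 66cl4 stood lowest, below 67NR by a log2 fold change of -1.54 (SE 0.12, 1.12e-05).

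Among the targets, Car9, Bnip3 and Ndrg1 were lower by over 2-fold in the first line of each pair. Car9 (GeneID 230099, chromosome 4, 43507026 to 43513729), a carbonic anhydrase of the cell surface that turns over carbon dioxide outside the cell and is widely used as a marker of hypoxia, had 2.87 and 2.68 CPM in 4T1.2, 54.4 and 85.4 CPM in 4T1, 47.5 and 50.2 CPM in 66cl4 and 164 and 186 CPM in 67NR. The order was 4T1.2, 66cl4, 4T1 and 67NR, with no overlap. Car9 was 25.2-fold lower in 4T1.2 than in 4T1 (log2 fold change of -4.65, SE 0.22, edgeR adjusted p of 2.47e-06), and with 1 library left out this value lay between -4.94 and -4.29. It was 3.58-fold lower in 66cl4 than in 67NR (-1.84, SE 0.18, 3.66e-05). The middle lines of this order, 66cl4 and 4T1, differed by a log2 fold change of 0.52 (adjusted p of 0.0245), which was 0.17 (0.194) without the second 4T1 replicate, and the call was also lost without either 66cl4 replicate (0.106 and 0.0682).

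Car12 (GeneID 76459, chromosome 9, 66712296 to 66766845), the other surface carbonic anhydrase of tumours, had 62.7 and 60.02 CPM in 4T1.2 and 119.7 and 122 CPM in 4T1, and had 5, 1, 5 and 2 counts in the libraries of 66cl4 and 67NR. Relative to library size the ratio of the first pair to the second was 1310 (95% counting interval 766 to 2461). 4T1.2 lay below 4T1 by a log2 fold change of -0.98 (SE 0.14, edgeR adjusted p of 0.00103). Of the summed RPKM of both enzymes, Car12 made up 92.1% in 4T1.2 and 48.4% in 4T1, and at most 0.122% in any library of 66cl4 and 67NR.

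Bnip3, which tags mitochondria for removal, had 48.1 and 58.2 CPM in 4T1.2, 171 and 282 CPM in 4T1, 67.0 and 72.9 CPM in 66cl4 and 208 and 200.05 CPM in 67NR. The low lines and the high lines were the same as for Slc2a1, and the log2 fold changes were -2.09 (SE 0.20, edgeR adjusted p of 0.000131) and -1.54 (SE 0.20, 0.000205) within the pairs. Ndrg1, a stress-response gene and a known suppressor of metastasis in several tumours, had 121 and 129 CPM in 4T1.2, 364 and 579.7 CPM in 4T1, 51.3 and 55.3 CPM in 66cl4 and 121 and 129 CPM in 67NR. 4T1.2 and 67NR could not be separated (log2 fold change of 0.00, SE 0.18, 0.996), and 4T1.2 was below 4T1 by -1.92 (SE 0.18, 0.000117) and 66cl4 below 67NR by -1.23 (SE 0.18, 0.000454). With 1 library left out, the difference in the first pair stayed between -2.41 and -1.69 for Bnip3 and between -2.21 and -1.54 for Ndrg1.

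Other genes of the same pathways were counted in 6 lists with 107 genes, of which 90 were tested. Among 30 tested hypoxia targets outside the list, 17 were lower and 1 was higher with 4T1.2 against 4T1, beside 9.91% and 9.35% of all genes, and 16 were lower and 3 higher with 66cl4 against 67NR, beside 22.4% and 22.2%. Leaving out 1 library moved these counts of lower genes in both directions. They fell furthest without the first 4T1.2 replicate in the first comparison and without the second 67NR replicate in the other. Named after their values were seen, Stc2 (-2.93), Ak4 (-2.06) and Plod1 (-1.51) had the largest falls in 4T1.2 on the log2 scale. Stc1, the 1 that was higher there (1.2), had 156 and 121 CPM in 4T1.2, 60.6 and 59.4 CPM in 4T1 and at most 0.405 CPM elsewhere. Adm, the vasodilator adrenomedullin, also named after its values were seen, was lower in 4T1.2 (-1.19) and higher in 66cl4 (1.75). In the pooled comparison these targets split into 14 higher and 11 lower, beside 38.1% and 38.6% of all genes. Selenbp1 was among the higher. So was Cited1, at most 0.670 CPM in any library, and Gdf15, at most 0.490 CPM, was among the lower.

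Of the 10 tested regulators of HIF, 8 were lower and none was higher in 4T1 and 4T1.2 together, beside 38.6% and 38.1% of all genes, opposite in direction to Hif1a. Hif1an, the asparaginyl hydroxylase that blocks HIF activity, was at 36.0 to 41.3 CPM in the first pair and 153 to 177 CPM in the second (-2.08, SE 0.08, edgeR adjusted p of 3.97e-09). Cited2, which competes with HIF for its coactivator, was at 139 to 194 CPM and 477 to 747 CPM (-1.86, SE 0.07, 3.03e-09). Arnt, the partner subunit of HIF, was at 48.4 to 58.6 CPM and 91.8 to 133 CPM (-1.06, SE 0.07, 3.21e-07), and its relative Arnt2 at most 0.3 CPM against at least 4.36 CPM. Within 4T1.2 against 4T1, 2 of the 10 were lower, where 9.91% of all genes were.

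Counts in the neighbouring pathways were mixed. They stand beside 9.35% of all genes higher and 9.91% lower in 4T1.2 against 4T1, and 38.1% higher and 38.6% lower between the pairs. In 4T1.2 against 4T1, none of 15 other isoforms and transporters of glycolysis was higher and 1, the transporter chaperone Bsg, was lower (named after its values were seen), 3 of 13 genes of pyruvate entry into mitochondria were higher and none lower, 1 of 9 genes of the pentose phosphate branch went each way, and 2 and 4 of 13 glycogen genes were higher and lower. Without the first 4T1.2 replicate, 1 gene of pyruvate entry was higher, and 1 glycogen gene and no other isoform was lower. Between the pairs, 9 of the 15 other isoforms and transporters were higher in 4T1 and 4T1.2 and 4 were lower. Slc2a5, a fructose transporter, was at 74.4 to 95.7 CPM in the first pair and at most 0.129 CPM in the second. Slc2a6 and Ldhd, which oxidises D-lactate, were also higher in the first pair. Emb, a chaperone of monocarboxylate transporters, was lower, at most 1.24 CPM in any library. Among the genes of pyruvate entry, 6 were higher and 6 lower, and Pc, pyruvate carboxylase, was at 4.51 to 6.65 CPM against 36.9 to 57.6 CPM (-3.09, SE 0.07, edgeR adjusted p of 1.59e-10), with Me1, Pck2 and Pdha1 lower as well. In the pentose phosphate branch, 3 were higher (Tkt and Tktl1 among them) and 4 lower (Rpia and Pgd among them). Tktl1 was at most 0.366 CPM in any library. Of the glycogen genes, 3 were higher and 8 lower, and Ppp1r3c, which brings protein phosphatase 1 to glycogen, was at 0 in all 4 libraries of 4T1.2 and 4T1 and at 12.5 to 17.5 CPM in 66cl4 and 67NR. Phkg1 and Phka2, subunits of phosphorylase kinase, were also lower in the first pair.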

How the data were processed

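The authors extracted total RNA from the 4 lines, prepared libraries with the TruSeq RNA v2 protocol, aligned reads to mm10 with Rsubread and deposited raw counts per Entrez gene made with featureCounts, per the labels and the study's methods. Whether counting used strand, and how reads of repeated sequence were treated, is not given in the sources used here, so overlapping genes and near-identical copies are uncertain. The authors' deposited counts were used as given, and all columns were mapped to samples.

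Genes were filtered with filterByExpr at default settings (15269 left), and identifiers without an entry in a GRCm38 gene table, predicted genes and ribosomal genes were removed (13930 left). The genes removed by annotation held 5.23% to 7.81% of the counts. Differences were tested with glmQLFTest of edgeR 4.0.16, under R 4.3.3, after TMM scaling, fitting 1 mean per line to all 8 libraries (4 residual degrees of freedom), with Benjamini-Hochberg adjustment over all 13930 genes and a threshold of 0.05. CPM use TMM-scaled library sizes, and RPKM also divide by the gene length given with the counts. Standard errors (SE) were derived from the test statistic. Counting intervals are at 95% and cover counting error only.

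The genes were chosen by function, without a threshold on measured values, and they, the lists and the rules were chosen with earlier results of these data known. Every gene of the list was named, and those past 2-fold and an adjusted p of 0.05 in a comparison of single lines were given per library. In the other lists at most 4 genes each were named, those with the largest called pooled differences, and exceptions are stated. The alternatives were DESeq2 size factors, DESeq2's Wald test (1.42.0), limma-voom (limma 3.58.1), edgeR's newer fit, robust estimation, a prior count of 2, other filters, glmTreat with a limit of 1 on the log2 scale, thinning to the smallest total, the replicate number as a block and each library left out. The code was tested on simulated data. Shared sequence was the share of 75-base stretches of a gene's reference transcripts found in another gene's. Figures were drawn with matplotlib 3.10.9.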

Additional observations from a re-analysis of the deposited data

How the results depend on the processing

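Recomputed counts of the 38 genes called stayed within 1.5 times the value reported in 256 cases. Among these, the count in 66cl4 against 67NR lay at the edge of that range without the first 66cl4 replicate. Counts of the other pathway lists with 1 library left out stayed within the range in 253 cases and left it in 35. Counts of the 38 genes left it in 3 cases. The 3 were the count called in 4T1.2 against 4T1, which was 15 without the first 4T1.2 replicate (range over libraries left out 15 to 26), the count over 2-fold there (4 to 12), and the count over 2-fold in 4T1 against 67NR, which was 7 when tested against a log2 fold change of 1. With counts not divided by length, the differences in share between the pairs were 5.08 percentage points for Pfkm, 1.59 for Eno2, 0.659 for Ldhb, 21.7 for Pfkfb3 and 79.6 for Car12. Pooled log2 fold changes near 0 changed sign: Pgk1 (0.00) was -0.027 by limma-voom, -0.011 with the replicate block and -0.013 after thinning, and lay between -0.23 and 0.18 with 1 library left out (called at both ends, without the second and the first 4T1 replicate), Pgam1 (0.02) between -0.091 and 0.11, and Bnip3 (-0.12) between -0.32 (called, without the second 4T1 replicate) and 0.035. With the replicate number as a block, 26 were called in 4T1.2 against 4T1 (3 higher, 23 lower), and Pdk2 in 4T1.2 against 66cl4 was the only call of the 38 genes lost (adjusted p of 0.0524 by edgeR). Deviations of same-numbered replicates correlated between -0.33 and 0.65 over the 6 pairs of lines, negatively in each pair with 66cl4. The 0.65 was that of 4T1.2 and 4T1, and 4T1 and 67NR stood at 0.30. The numbers were not taken to pair the samples over all lines. The block was fitted to all 4 lines at once, and a pairing of 4T1.2 with 4T1 alone was not tested. Pdk2 and Ldha in 4T1.2 against 66cl4 and Pkm in 66cl4 against 67NR, reported at 0.0476, 0.0478 and 0.0462, passed 0.05 under some other settings, reaching at most 0.0726, and so did Pdk2 in 66cl4 against 67NR after thinning (0.0522). With 2 replicates per line, values at a few counts per library are imprecise.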
